A study of Mus musculus with 2 samples.

Results

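The 10 genes described here encode C-type lectin receptors of myeloid cells: Clec4a1, Clec4a2, Clec4a3, Clec4d, Clec4e, Clec4n, Clec5a, Clec7a, Clec10a and Clec12a. They were taken by gene symbol from the platform annotation by a rule that uses no measured value, and all 10 had a named probe among 19057 named genes. The set itself was proposed with earlier results of these data known. Their 17 probes were read on 1 bead array of PirBTM MLL-AF9 leukaemic stem cells and 1 bead array of wild-type MLL-AF9 leukaemic stem cells. Both samples came from bone marrow of C57BL/6J mice labelled 9 weeks old and carried MLL-AF9, a fusion of the Kmt2a (MLL) and Mllt3 (AF9) genes that drives acute myeloid leukaemia. The label PirBTM is not spelled out; by its letters it may refer to Pirb, which encodes an inhibitory receptor on myeloid cells and B cells, and the sources used here do not say what it changes. They also do not give how the fusion was delivered, how the cells were sorted or how many mice were used. With 1 array for each genotype there is no spread between replicates and no test, and every difference below is one between these 2 samples.

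C-type lectin receptors recognise sugars, lipids and other structures of fungi, bacteria and dying cells. Activating members signal through the kinase SYK and the adaptor CARD9, either from a tyrosine motif of their own (hemITAM) or through the partner chains FcR gamma (Fcer1g) and DAP12 (Tyrobp). Inhibitory members carry an ITIM, a tyrosine motif that recruits the phosphatases SHP-1 and SHP-2, the same kind of motif that Pirb uses. In marrow they are mainly genes of monocytes, macrophages, neutrophils and dendritic cells.

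A probe counted as above background where the scanner's detection p-value was under 0.01, which held for 36.2% of the 45281 probes in the PirBTM sample and 33.4% in the wild-type sample. Intensities were background corrected, quantile normalized and put on a log2 scale on which the brightest probes reached 15.67. The measuring error was taken from 2944 genes whose 2 brightest probes both passed on each array: the SD of 1 log2 ratio was 0.30. This SD was 0.35 where the lowest of the 4 values was under 8 and 0.22 where it was 8 or over. It does not cover variation between animals, sorts or RNA preparations.

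The arrays differed in the markers of their cells. Of 12 markers of MLL-AF9 leukaemic stem cells, such as Hoxa9 and Meis1, 10 were at least 2-fold lower on the PirBTM array. Hoxa5, Hoxa10, Eya1, Igf2bp3 and Cd34 were below background there, although that array is also labelled as leukaemic stem cells. Kit and Itgam, the other 2, had log2 ratios of -0.71 and 0.86. The cause of this difference was not tested. The summed linear intensity of the 12 markers was 4000 in PirBTM and 23168 in wild type. Macrophage markers were at least 2-fold higher on the PirBTM array in 10 of the 10 above background (sums of 56236 and 6364), monocyte markers in 7 of 8 (50639 and 12688), neutrophil markers in 4 of 10 (259683 and 139337) and dendritic cell markers in 7 of 8 (85167 and 682). Cd5l among the macrophage markers, Mmp8 among the neutrophil markers, and Flt3, Itgax and Xcr1 among the dendritic cell markers were below background on both arrays. Of the dendritic cell markers that passed, H2-Aa, H2-Ab1, H2-Eb1, Cd74 and Ciita belong to the MHC class II pathway, which B cells and macrophages also use. These genes made up most of the summed intensity in PirBTM. Batf3 and Siglech were the others that passed, and Zbtb46 had a bound of 1.01-fold. More cells of a type and more RNA per cell cannot be told apart in these bulk samples. Erythroid markers were at least 2-fold higher in 7 of 7 (32880 and 535), and of 5 eosinophil, basophil and mast cell markers 2 were higher and 1 lower (23259 and 25146). No probe was named Pirb, so the arrays gave no check of the genotypes.

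Most of the receptors were brighter in PirBTM cells. Of the 10, 9 were above background on at least 1 array, of which the PirBTM array showed all 9 and the wild-type array 7. Clec4a1, Clec4a3, Clec4d, Clec4n, Clec5a, Clec7a and Clec10a, 7 of these 9, were at least 2-fold higher in PirBTM, against 12.8% of the 9432 named genes above background on an array; since the set was proposed with results known, this is a description and not a test. Clec12a was at least 2-fold lower, against 9.67% of those genes, Clec4e lay in between, and Clec4a2 was below background on both arrays. The median log2 ratio (PirBTM minus wild type) of the 9 receptors was 2.60, or 2.29 with Clec5a and Clec10a at their lower bounds, beside -0.15 for all 9432 genes. Most macrophage and monocyte markers and 4 of 10 neutrophil markers were at least 2-fold higher on the same array, with the sums given above. So was most of the dendritic cell list, mainly by its MHC class II pathway genes. The part of these markers in this difference was not tested.

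**Figure D1:**
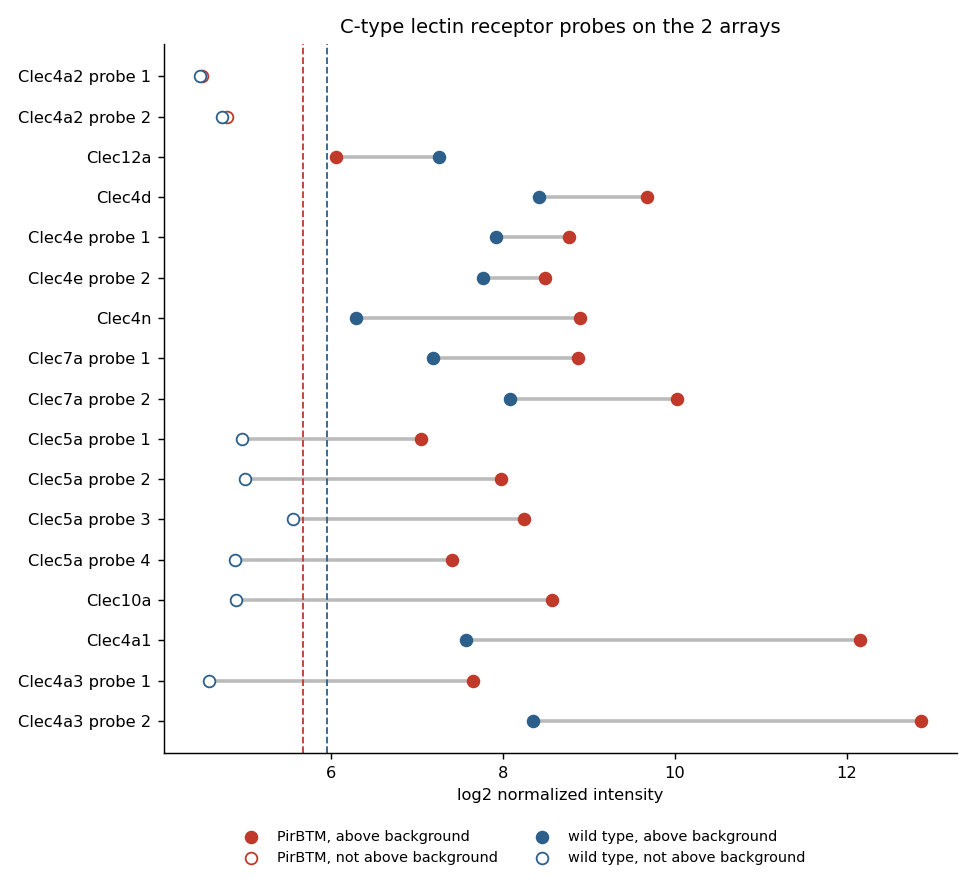
Log2 normalized intensity of each of the 17 probes of the 10 receptors on the PirBTM array (red) and the wild-type array (blue); hollow circles were not above background, and dashed lines mark the lowest intensity above background, 5.67 for PirBTM and 5.95 for wild type. Clec12a is the only receptor whose PirBTM value lies clearly left of its wild-type value, and both probes of Clec4a2 lie left of the dashed lines.

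Clec4a1 and Clec4a3, relatives of the dendritic cell immunoreceptor DCIR (Clec4a2) that are also called Dcir4 and Dcir3, differed most between the samples. Clec4a1 had an average signal of 5033 scanner units in PirBTM and 284 in wild type. On the normalized log2 scale these were 12.16 and 7.57, a 24.1-fold difference. By its brighter probe Clec4a3 had a signal of 7903 in PirBTM and 408 in wild type, or 12.87 and 8.35 on the log2 scale, and was 23.0-fold higher. Both values lay well under the top of the scale. The 9432 genes were ranked by ratio, with those above background on 1 array at their lower bound. Clec4a1 was 61st and Clec4a3 64th from the highest. Genes with a larger measured ratio could thus rank below them, such as Klf1 (log2 ratio of 4.73, bound of 4.31).

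The other probe of Clec4a3 was also brighter in PirBTM. Its signal was 368 in PirBTM and 132 in wild type; the wild-type signal was not above background, with a detection p-value of 0.717. It therefore gave only a lower bound, at least 3.24-fold, which does not show whether its size differs from that of the brighter probe. The sources used here do not give which transcripts each probe reads. The Clec4a genes are close relatives, and how far their probes share signal was not measured.

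Clec4a2, DCIR itself, carries an ITIM and gives inhibitory signals in dendritic cells and macrophages. Its probes had signals of 153 and 134 in PirBTM and 139.7 and 124 in wild type. Detection p-values ran from 0.263 to 0.958, so no level or fold is given for it. Its transcript was not detectable with these probes on either array, while Clec4a1 and Clec4a3 on the same chromosome were bright in PirBTM.

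The promoters of these 3 genes and of Clec12a are shown because they span the range of the set: the highest pair, the receptor not detected and the lower one. Each runs from 250 bases before to 50 bases after a RefSeq transcription start of build GRCm38.p6, 5′ to 3′, with capitals at each GAGGAA, a core of sites bound by the myeloid factor PU.1, or its reverse complement TTCCTC. Clec4a1 lies at chr6:122921598-122921897 on the plus strand, Clec4a3 (the downstream of its 2 listed starts) at chr6:122952394-122952693 on the plus strand, Clec4a2 at chr6:123122440-123122739 on the plus strand and Clec12a at chr6:129349994-129350293 on the plus strand.
Clec4a1 promoter: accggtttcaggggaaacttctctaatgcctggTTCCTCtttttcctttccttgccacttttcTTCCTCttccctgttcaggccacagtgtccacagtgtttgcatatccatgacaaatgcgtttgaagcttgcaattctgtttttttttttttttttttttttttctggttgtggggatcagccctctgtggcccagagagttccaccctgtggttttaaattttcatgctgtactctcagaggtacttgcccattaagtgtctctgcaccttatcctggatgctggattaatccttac
Clec4a3 promoter: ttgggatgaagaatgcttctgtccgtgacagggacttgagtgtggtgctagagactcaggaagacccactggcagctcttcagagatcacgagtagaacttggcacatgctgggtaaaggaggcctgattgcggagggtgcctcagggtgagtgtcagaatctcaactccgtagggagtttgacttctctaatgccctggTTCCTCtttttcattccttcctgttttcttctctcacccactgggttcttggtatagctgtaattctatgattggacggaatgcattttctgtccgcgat
Clec4a2 promoter: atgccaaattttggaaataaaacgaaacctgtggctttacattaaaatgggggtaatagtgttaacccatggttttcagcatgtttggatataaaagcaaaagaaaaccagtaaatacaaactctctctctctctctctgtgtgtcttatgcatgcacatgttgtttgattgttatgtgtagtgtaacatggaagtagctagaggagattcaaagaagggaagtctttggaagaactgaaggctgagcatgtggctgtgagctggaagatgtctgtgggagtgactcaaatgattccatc
Clec12a promoter: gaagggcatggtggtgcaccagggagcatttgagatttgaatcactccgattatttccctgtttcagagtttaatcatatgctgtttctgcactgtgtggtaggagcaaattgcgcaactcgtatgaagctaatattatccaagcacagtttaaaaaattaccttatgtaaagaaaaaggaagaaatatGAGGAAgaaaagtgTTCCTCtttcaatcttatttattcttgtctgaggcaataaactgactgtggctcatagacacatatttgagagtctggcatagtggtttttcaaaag

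Promoters were listed for 8 of the 10 receptors, those other than Clec4n and Clec10a. GAGGAA was present on either strand in 7 of these 8 genes (8 of 10 listed starts) and in 28.3% of all 32851 listed mouse promoters. Clec4a2 was the gene without it. The Clec12a window held 2 copies. It also held TTGCGCAA, a palindrome bound by C/EBP factors, which 0.183% of all promoters had and no other listed receptor promoter did. TGANTCA, a looser form of the AP-1 motif TGA(C/G)TCA, was found for Clec12a and Clec4a2, against 7.81% of all promoters. The match was TGACTCA in Clec4a2 and TGAATCA, which lies outside the strict motif, in Clec12a. These motifs were searched on both strands and did not overlap one another in the Clec12a window; a match is a description of the letters and not a binding site.

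The Clec4a1 and Clec4a3 promoters shared a stretch around one such GAGGAA copy. A local alignment of the windows above matched 45 of 51 columns (88.2%), and the longest run identical in both was 17 bases long.
Shared run: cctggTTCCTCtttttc
Counted from the transcription start, it began at -222 in Clec4a1 and at -55 in the downstream Clec4a3 window. These are the receptors with the highest ratios, but the core of the run was not particular to them. Each of these windows also shared a run of 10 bases, TTCCTCtttt, with the promoter of Clec4e, which did not reach 2-fold. The window of the other Clec4a3 start aligned with Clec4a1 over only 8 columns. The neighbouring pair Clec4b1 and Clec4b2 had a longer but less identical alignment (137 of 186 columns).

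Of the 3 receptors that signal through FcR gamma, Clec4n and Clec4d were at least 2-fold higher in PirBTM and Clec4e was not. Clec4n, known as Dectin-2, a receptor for mannose-rich fungal walls, had a signal of 666 in PirBTM and 189 in wild type. The wild-type value lay just over background, with a detection p-value of 0.00321 and a log2 intensity of 6.29, so the 6.05-fold difference is uncertain in size; the log2 ratio of 2.60 was 1.54 without background correction and 1.53 in the authors' deposited values. Clec4d, also called MCL, which pairs with Mincle, had signals of 1037 in PirBTM and 424 in wild type and was 2.37-fold higher. Clec4e, Mincle, the receptor for the mycobacterial glycolipid cord factor, had signals of 625 in PirBTM and 329.8 in wild type by its brighter probe.

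Clec4e was the receptor above background that did not reach 2-fold. Its probes gave log2 ratios of 0.85 and 0.72, which are 1.80-fold and 1.64-fold. The ratio exceeded the measuring SD of 0.30, and the gap between the 2 probes, 0.13, was smaller than that SD. Under cyclic loess and median scaling Clec4e passed 2-fold, at log2 ratios of 1.11 and 1.05. The normalizations also move all genes: the median log2 ratio of the genes above background was -0.15 as reported, 0.10 after cyclic loess and -0.02 after median scaling. Relative to these medians Clec4e gave 1.01 after cyclic loess and 1.07 after median scaling, and lay about at 2-fold as reported.

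Clec7a, Dectin-1, the receptor for fungal beta-glucan with its own hemITAM, was measured by a pair of probes. The brighter had signals of 1274 in PirBTM and 355 in wild type and a 3.85-fold difference. The other had 661 and 246 and a 3.22-fold difference. Their log2 ratios of 1.94 and 1.69 differed by 0.26, less than the measuring SD, and all 4 values were above background.

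Clec5a and Clec10a were seen on the PirBTM array only. Clec5a, also called MDL-1, works with DAP12 and amplifies inflammatory responses of myeloid cells. Its 4 probes had signals of 289.6 to 479.8 in PirBTM and 145 to 164 in wild type. None of the 4 was above background in wild type, and the brightest was at least 4.88-fold higher in PirBTM. The other 3 probes gave bounds of at least 2.14-fold to at least 4.10-fold, so all 4 passed 2-fold with this processing. These bounds rest on the background correction: the log2 ratio of the brightest probe, 2.69 as reported, was 1.30 without background correction and 1.25 in the authors' deposited values, both smaller than the bound.

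Clec10a, the galactose-binding macrophage lectin MGL1, is a receptor for uptake of glycoproteins. It had a signal of 563 in PirBTM and 145 in wild type, where its detection p-value was 0.237. It was at least 6.13-fold higher in PirBTM with this processing. The log2 ratio of Clec10a, 3.68 as reported, was 1.74 without background correction and 1.68 in the authors' deposited values, both smaller than the bound of 2.62. Mgl2, its close relative, was above background on both arrays, and its probes were 11.3-fold and 6.92-fold higher; how far probes of these paralogues share signal was not measured.

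Clec12a, known as MICL or CLL-1, carries an ITIM and restrains responses to dead cells; in humans CLL-1 is a surface marker of acute myeloid leukaemia stem cells. Its single probe had a signal of 211 in PirBTM and 252 in wild type. On the normalized log2 scale these were 6.06 and 7.25, a log2 ratio of -1.19 and a 2.28-fold lower level in PirBTM. The PirBTM value lay near the lowest intensity above background on that array, 5.67, with a detection p-value of 0.00214. The size depended on the processing: the log2 ratio was -0.91 after cyclic loess, -0.90 after median scaling, -0.88 with a larger background offset, -0.53 without background correction and -0.49 in the authors' deposited values. Clec12a thus stayed lower but under 2-fold in all 5 alternatives that could move its value; with 1 probe above background on both arrays, the other alternatives leave it as it is. Markers of leukaemic stem cells were lower on the same array, and their part in this difference was not tested.

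**Figure D2:**
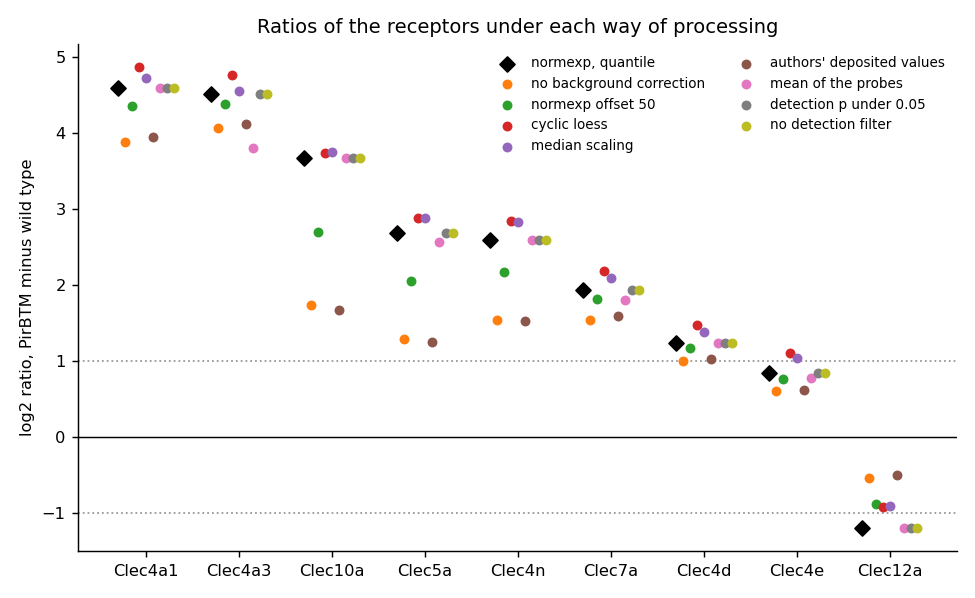
Log2 ratio (PirBTM minus wild type) of the 9 receptors above background, with black diamonds for the values as reported and coloured points for the 8 alternatives; dotted lines mark 2-fold. Clec4a1 and Clec4a3 lie between 3.80 and 4.87 throughout, Clec12a lies between -1.19 and -0.49, and the ratios of Clec5a, Clec10a and Clec4n shrink most without background correction.

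**Figure D3:**
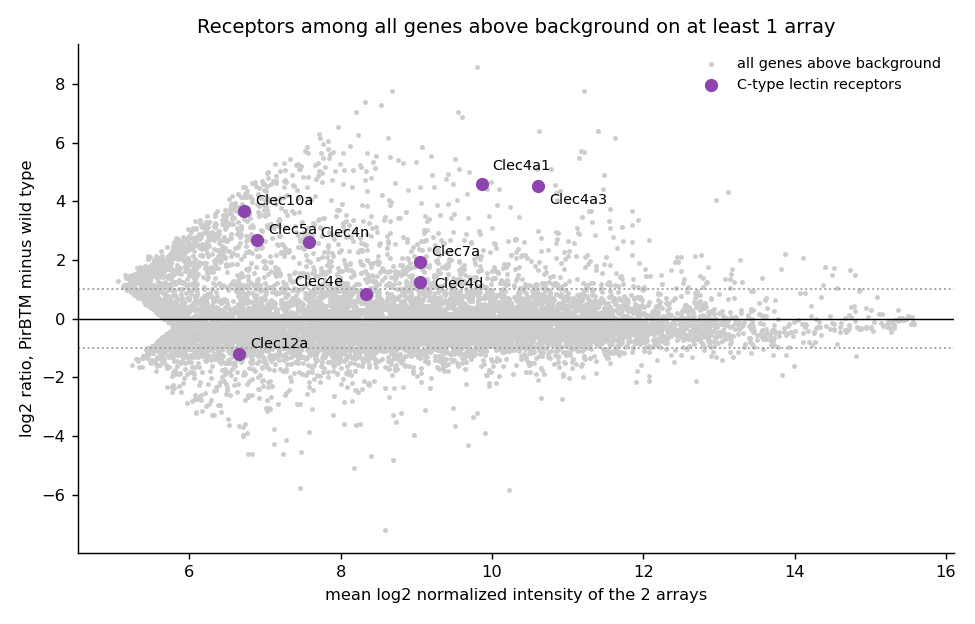
Log2 ratio (PirBTM minus wild type) against the mean log2 intensity for each of the 9432 named genes above background on at least 1 array (grey), with the 9 receptors in purple and ratios plotted as measured, not at their bounds. Clec4a1 and Clec4a3 stand among the highest ratios at intermediate brightness.

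Position on the chromosome was not used to choose the genes. By RefSeq order on assembly GRCm38.p6, 9 of the receptors lie on chromosome 6 and Clec10a on chromosome 11. From Clec4a1 to Clec4e there are 11 annotated genes; 8 were on the array by name and 6 of them were above background. In order, the log2 ratios were 4.59 for Clec4a1, 4.52 for Clec4a3, 2.07 for Clec4b1, 2.60 for Clec4n, 1.24 for Clec4d and 0.85 for Clec4e. Between them, Clec4a4 (also called DCIR2) and Clec4a2 were below background on both arrays. Undetected genes thus lie between bright ones in this run.

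Clec4b1, an activating relative of DCIR called DCAR, had probes that disagreed in size. Its probe seen on both arrays had a signal of 4135 in PirBTM and 930.4 in wild type and was 4.21-fold higher. Another had 3296 in PirBTM and 138 in wild type, where it was not above background, and gave at least 48.2-fold. The remaining probe gave at least 3.99-fold. All 3 pointed the same way, and the size for Clec4b1 is therefore uncertain; its near relative Clec4b2 had no probe named in the annotation used here.

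In the second run, from Clec12a to Clec7a, 6 of 7 genes had a named probe and 4 were above background. The ends of the run went opposite ways, with log2 ratios of -1.19 for Clec12a and 1.94 for Clec7a. Between them Clec9a, a dendritic cell receptor for dead cells, had 1 of 3 probes above background on the PirBTM array and was at least 1.72-fold higher. Clec1b, the platelet receptor CLEC-2, was near background, and Clec12b and Clec1a were below it on both arrays.

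**Figure D4:**
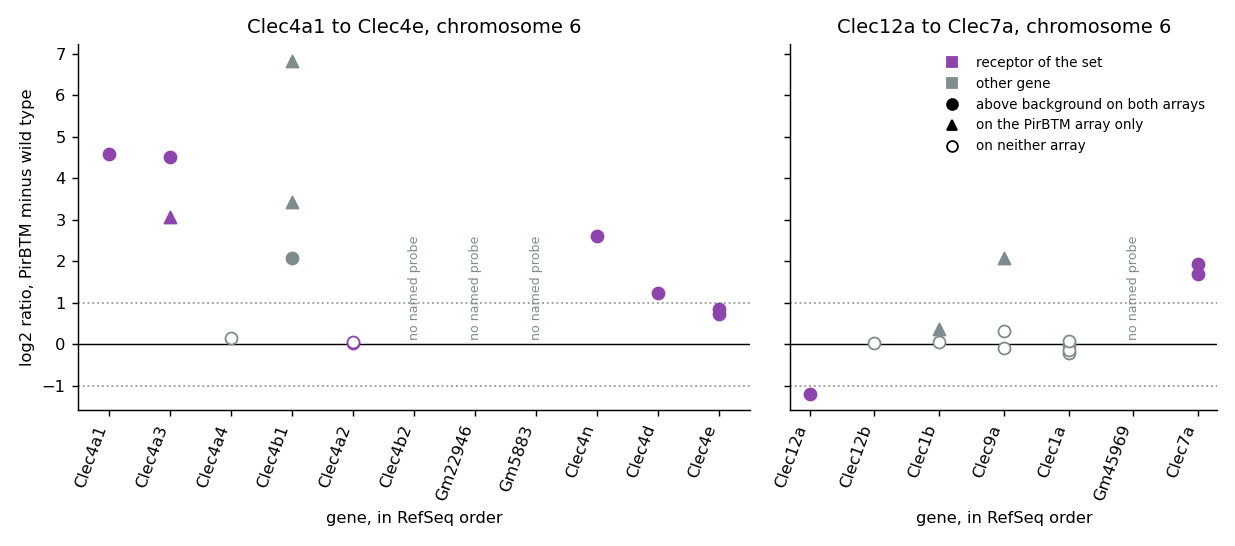
Log2 ratio (PirBTM minus wild type) of every named probe in the 2 runs of C-type lectin genes on chromosome 6, in RefSeq order and not to scale, for receptors of the set (purple) and other genes (grey); circles were above background on both arrays, triangles on the PirBTM array only, with the ratio as measured, and hollow circles on neither. Clec4a1 and Clec4a3 are high while Clec4a4 and Clec4a2 are not detected, and Clec12a and Clec7a lie on opposite sides of 0.

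Other genes with C-type lectin-like domains were mixed. Among 57 such genes 54 were on the array by name, and 24 were above background in PirBTM and 9 of these in wild type. Of these, 9 were at least 2-fold higher in PirBTM, 2 were at least 2-fold lower and 13 were not, with a median log2 ratio of 1.72, or 0.82 with bounds. The macrophage mannose receptor Mrc1 had a signal of 4370 in PirBTM and 195 in wild type and was 46.5-fold higher, beside Mgl2 and Clec4b1. Apart from Clec2d, described below, the others that passed 2-fold were seen on the PirBTM array only. They were the B cell genes Cd72 (at least 97.4-fold) and Fcer2a (at least 7.87-fold), the NK receptors Klrb1b (at least 8.73-fold) and Klrd1 (at least 7.57-fold), and Klra2 (at least 3.18-fold by 1 of its 2 probes, the other being below background). These are the brightest probes: the other Fcer2a probes gave bounds of 1.49-fold and 1.78-fold, and of the other 4 Klrb1b probes 2 gave bounds of 2.91-fold and 1.57-fold and 2 were below background on both arrays. The bounds rest on the background correction. Without it the log2 ratios of Cd72, Fcer2a, Klrb1b, Klrd1 and Klra2 were 5.38, 1.97, 2.11, 2.02 and 1.27. Their log2 bounds as reported were larger, at 6.61, 2.98, 3.13, 2.92 and 1.67. Further lectin-like genes of lymphocytes did not pass: Cd69 had a log2 ratio of -0.80, Klrk1 was above background in PirBTM with no fold to give, and Klrb1c, Klrc1 and Klrg1 were below background on both arrays. Clec2d, a ligand of NK receptors, was above background on both arrays and 3.02-fold higher.

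The lower ones were Clec2i and Clec11a. Clec2i had a signal of 308 in PirBTM and 582 in wild type and was 3.47-fold lower. Clec11a, a secreted growth factor for blood progenitors and bone, had 297 and 493 and was 3.02-fold lower. Both genes stayed at least 2-fold lower under the 5 alternatives of background correction and normalization. B cell markers above background were at least 2-fold higher on the PirBTM array in 4 of 5 (sums of 9007 in PirBTM and 1762 in wild type), and T and NK cell markers in 4 of 4 (5190 and 2052); their part in these differences was not tested. Pax5, Cd8a and Ncr1 of those lists were below background on both arrays.

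Most genes that carry the receptors' signals lay within 2-fold, as did 7309 of the 9432 named genes above background on an array. Of those 9432 genes, 12.8% were at least 2-fold higher in PirBTM and 9.67% at least 2-fold lower. Of 16 adaptors and proximal kinases, 14 were above background; 4 were at least 2-fold higher in PirBTM and 0 lower, with a median log2 ratio of 0.62, or 0.20 with bounds. Fcer1g, the partner chain of Clec4d, Clec4e and Clec4n, was 2.08-fold higher, read close to the scale's upper end at log2 intensities of 15.09 in PirBTM and 14.03 in wild type. Tyrobp, the DAP12 partner of Clec5a, had log2 intensities of 12.78 in PirBTM and 12.85 in wild type, a difference smaller than the measuring SD. Among the others, the SRC-family kinase Fgr was at least 4.11-fold higher by its brighter probe, the other being below background on both arrays. The adaptor Blnk was at least 4.88-fold higher and the adaptor Lcp2 2.51-fold. Without background correction the log2 ratios of Fgr and Blnk fell from 2.48 and 3.53 to 1.15 and 1.59, under their bounds of 2.04 and 2.29. That of Lcp2 fell from 1.33 to 0.74. Syk, the kinase they share, had a signal of 196 on the PirBTM array, just above background, and 152 on the wild-type array, where it was not above background, so no fold is given.

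Downstream of SYK, Card9 was lower in PirBTM. Card9, the adaptor that links SYK to NF-kB, had a signal of 362 in PirBTM and 549 in wild type, a 2.47-fold lower normalized level. It was the 1 gene of 10 above background in the list of the CARD9 complex and the NF-kB and NFAT arm to pass 2-fold, and 0 were higher. Among all 9432 genes 9.67% were at least 2-fold lower, close to the share in this list. The median of that list was -0.28. Its partners Bcl10 and Malt1 had log2 ratios of 0.41 and -0.81. Card9 stayed lower under the 5 alternatives of background correction and normalization, and was under 2-fold without background correction and in the authors' deposited values.

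Of the phosphatases that ITIM receptors recruit, all 4 were above background and 1 was at least 2-fold higher. Inppl1, the lipid phosphatase SHIP2, was 2.27-fold higher by its brightest probe, and 2.11-fold and 1.61-fold higher by its others. Ptpn6 (SHP-1), Inpp5d (SHIP1) and Ptpn11 (SHP-2) had log2 ratios of 0.66, 0.57 and -0.12 by their brightest probes. Other probes above background gave 0.39 for Ptpn6, and -0.52 and -0.63 for Ptpn11. The median of the list was 0.61.

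Genes that these receptors are known to induce were higher in PirBTM. Of 17 target genes, 16 had a named probe and 10 were above background, of which 8 were at least 2-fold higher and 0 lower. Their median log2 ratio was 2.96, or 2.29 with bounds. The cytokine gene Il1b had a signal of 2818 in PirBTM and 218 in wild type and was 22.3-fold higher, Nfkbiz, an NF-kB cofactor, 21.5-fold, and the chemokine gene Ccl4 13.3-fold. Il10 was at least 7.21-fold and Cxcl2 at least 6.23-fold higher with this processing, and Tnf 2.86-fold. Without background correction the log2 ratios of Il10 and Cxcl2 were 2.03 and 1.49, under their bounds of 2.85 and 2.64. Il6, Il23a, Ptgs2, Csf2, Csf3 and Nos2, which macrophages make on strong stimulation, were below background on both arrays. Many stimuli other than lectin ligands induce these genes, and the macrophage and monocyte markers were higher on the same array; their part in the difference was not tested.

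**Figure D5:**
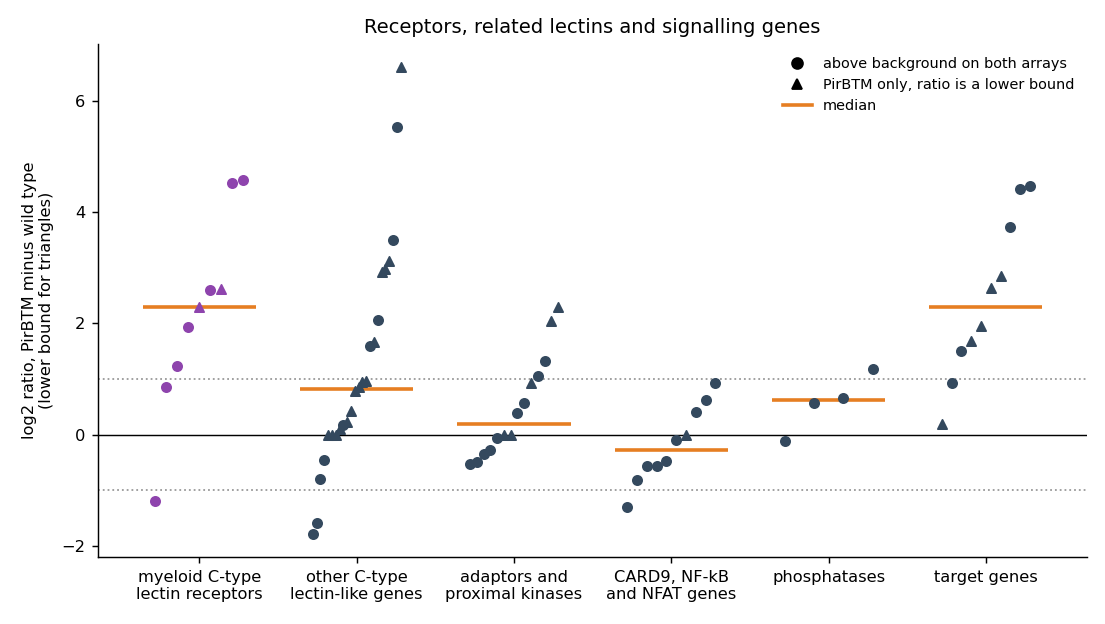
Log2 ratio (PirBTM minus wild type) of each gene above background on at least 1 array, for the receptors (purple), other C-type lectin-like genes and the signalling lists; triangles are lower bounds for genes seen on the PirBTM array only, and orange lines are medians with bounds. The receptors and the target genes have medians of 2.29, the CARD9, NF-kB and NFAT genes one of -0.28.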

How the data were processed

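Total RNA was extracted with Trizol, column-cleaned and labelled as biotinylated cRNA for Illumina bead arrays, per the labels' protocols. For 45281 probes the authors deposited a detection p-value beside the average signal, a linear intensity, per the file headers; medians of 161.3 (PirBTM) and 148.2 (wild type) show no normalization. Their deposited series table of intensities (medians 148.3 and 148.2) was used as an alternative; the sources used here do not give how it was made.

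Background was corrected with limma 3.58.1 in R 4.3.3 (nec, offset 16; background means of 147.2 and 139.3, SD 13.99 and 11.65, inferred from the detection p-values), taken to log2 and quantile normalized, on all probes. Of the probes, 34885 had 1 annotated symbol, 18 had several and 10378 had none here; 34807 were matched to RefSeq. The brightest probe stood for each gene, and members were named with every probe. Where 1 array was above background, the fold is a lower bound against the higher of the dim value and the lowest intensity above background on that array. Such a bound holds for this processing only, and several were not reached without background correction. Promoters were aligned locally (match 1, mismatch -1, gap -3 and -1). The normalization was tested on simulated data whose changed probes lay well above background. Changes in dim probes, such as that of Clec12a, were not covered by that test. The members, gene lists, alternatives and motifs were chosen with earlier results of these data known. Of other lists, up to 4 of the highest and 4 of the lowest members, lectins past 2-fold and neighbours of the receptors were named; the other named genes were picked for their roles. With 1 array a genotype, precision is limited by the number of arrays.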

Additional observations from a re-analysis of the deposited data

How the results depend on the processing

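All 9 receptors above background kept the direction of their ratio under the 5 alternatives of background correction and normalization. The detection limits leave these ratios as they are by construction, and the mean of the probes can move only receptors with several probes. The count at least 2-fold higher, 7 as reported, was 6 without background correction, where Clec4d lay just under 2-fold, and 8 with cyclic loess, with median scaling and at a 1.5-fold threshold; it was 6 at a 3-fold threshold. The count at least 2-fold lower, 1 as reported, was 0 without background correction, with an offset of 50, with cyclic loess, with median scaling, in the authors' deposited values and at 3-fold, since Clec12a then lay under the threshold. The median log2 ratio of the receptors, 2.60 (2.29 with bounds), was 1.54 (1.42) without background correction, 2.05 (1.82) with an offset of 50, 1.53 (1.39) in the authors' deposited values, and 2.27 with no detection filter, where Clec4a2 joins the list. With bounds it was 1.81 with the mean of the probes and 2.60 at a detection limit of 0.05, where Clec5a needs no bound. Relative to the median of all genes it was 2.75 as reported, 2.75 after cyclic loess and 2.85 after median scaling. Of all genes past 2-fold, the share higher in PirBTM was 57.0% as reported, 67.4% in the authors' deposited values, 68.3% without background correction, 69.4% with median scaling and 75.7% with cyclic loess. Uncorrected background adds a similar signal to both arrays, which pulls ratios of dim probes such as those of Clec5a, Clec10a and Clec12a toward 0; other causes were not tested. Of 1600 values for other genes and lists, 319 moved by more than the measuring SD (counts, by more than 1.5 times) and 0 reversed. For the receptors, 15 of 36 counts and medians moved, and 19 of 72 single ratios. Many of these values could not move, since the detection limits leave every single-gene ratio as it is. A reversal was a change of sign of a ratio or median that was at least 2-fold as reported. Smaller ratios that changed sign, and counts, could not be marked as reversed. No paired analysis was possible because each genotype has 1 array. Signal over background limits Clec12a, Clec4n, Clec5a, Clec10a and Clec4a2.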
